A study of Mus musculus with 18 samples.

Results

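Cdhr1 and the 4 annotated protein-coding genes closest to it on mouse chromosome 14 (Lrit1, Lrit2, Rgr and Ghitm) were followed through 6 RNA-Seq libraries of the ventral dentate gyrus. They are 5 of the 34620 gene symbols with read counts. Cdhr1 was picked for its large rise in both F1 and F2 relative to WT, so those differences are given as a description without a test, and the other 4 genes were picked by position. The study asked whether the environment provided by a mother with reduced serotonin 1A receptor leaves lasting expression changes in granule cells of her sons and of the next generation. The libraries came from male Swiss Webster mice aged 8 to 12 weeks, 2 each for WT, F1 and F2. WT males had a WT mother and a WT grandmother and belonged to a separate lineage bred in parallel. F1 males were WT sons whose mother and grandmother carried 1 disrupted copy of the receptor gene (5HT1A-/+ in the labels), and F2 males had a WT mother and a 5HT1A-/+ grandmother. Per the study's methods, the father of F1 males was heterozygous too, and their litters also held heterozygous and knockout pups. F2 males had a WT F1 mother and a WT father. The groups thus differ in the father's genotype and in litter mix as well as in the maternal line. No group received a treatment, and all animals sequenced were of WT genotype at the receptor gene according to the study's methods. The strain is outbred, and genotypes at chromosome 14 were not examined here. The study's methods say that the mice of each experiment came from 3 or more litters. The number of animals behind a library, and whether animals were pooled, is not given in the sources used here. The p-values therefore refer to spread between these libraries, which may be technical in part. That spread is fitted per gene over all 6 libraries and drawn toward a value common to all genes. It can be smaller than the gap between the 2 libraries of a group.

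Cdhr1 encodes a cadherin of photoreceptors that sits at the base of the outer segment, where the light-sensing discs form, and the gene is also known from mitral and tufted cells of the olfactory bulb. Rgr encodes an opsin of the retinal pigment epithelium and Müller glia that takes part in the recycling of retinal. Lrit1 encodes a leucine-rich repeat membrane protein of photoreceptor synapses, and Lrit2 belongs to the same family. Ghitm, also called Tmbim5, encodes a protein of the inner mitochondrial membrane that is used in most tissues. Genes of the retina thus lie next to a housekeeping gene, and the tissue studied is neither retina nor olfactory bulb.

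The 5 genes lie in the order Rgr, Lrit1, Lrit2, Cdhr1 and Ghitm along chromosome 14 (mm9). Cdhr1 spans chr14:37891036-37911497 on the minus strand, with 17 exon blocks that sum to 4303 bases, and no other annotated gene overlaps it. Lrit2 (chr14:37881235-37886921, plus strand) is 4114 bases away from Cdhr1 and Lrit1 (chr14:37868016-37878132, plus strand) 12903 bases. Rgr (chr14:37850676-37862150, minus strand) is 28885 bases away on the same side. Ghitm (chr14:37934004-37948452, minus strand) is 22506 bases away on the other side, upstream of the start of Cdhr1. The promoters of Cdhr1 and Ghitm are shown because these are the members with reads to compare. Each line gives the 250 bases before a RefSeq transcription start, placed on mm9 by an exact match and written 5′ to 3′ on the minus strand, with CpG dinucleotides in capitals. The Cdhr1 sequence is chr14:37911534-37911783 and the Ghitm sequence, the first of 3 RefSeq promoters of this gene, is chr14:37948509-37948758.
Cdhr1: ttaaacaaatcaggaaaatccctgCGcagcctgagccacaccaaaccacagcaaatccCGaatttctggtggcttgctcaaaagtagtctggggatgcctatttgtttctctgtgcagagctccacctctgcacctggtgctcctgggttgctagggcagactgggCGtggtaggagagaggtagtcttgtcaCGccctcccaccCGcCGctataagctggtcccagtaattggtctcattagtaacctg
Ghitm: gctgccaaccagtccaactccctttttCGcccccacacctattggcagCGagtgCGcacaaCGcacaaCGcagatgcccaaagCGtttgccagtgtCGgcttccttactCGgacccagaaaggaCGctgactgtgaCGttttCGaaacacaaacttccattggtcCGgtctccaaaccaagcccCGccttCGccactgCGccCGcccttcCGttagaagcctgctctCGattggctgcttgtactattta
The Cdhr1 promoter held 6 CpGs, the median of 32851 RefSeq promoters, and 50.4% of them held at least as many. The first Ghitm promoter held 18 CpGs, and 21.7% of promoters held at least as many. The other 2 Ghitm promoters, which overlap it, held 23 and 24 CpGs (13.3% and 12% of promoters). Lrit2 had 4 CpGs in this window, and Lrit1 and Rgr had 0.

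The core motif of the retinal homeodomain factors Crx and Otx, TAATCC, was searched on both strands of the same 250 bases, since Crx is known to act on many photoreceptor genes. It occurred once in the promoters of Lrit1, Lrit2 and Rgr and was not found in those of Cdhr1 or Ghitm, while 6.25% of all promoters held it. The 3 matches are shown within 30 bases, with the motif in capitals. The Lrit1 window is chr14:37867954-37867983 and the Lrit2 window chr14:37881166-37881195, both written on the plus strand, and the Rgr window is chr14:37862350-37862379 on the minus strand. In Lrit2 the motif is read on the opposite strand and so appears as its reverse complement.
Lrit1: gggctccctcccTAATCCccagcctgtgtt
Lrit2: ctacatctttatGGATTAccaataatagga
Rgr: gatccaagacctTAATCCtgcctagtgggc
Of the other motifs searched on both strands, the CCAAT box occurred once in the promoters of Cdhr1 and Rgr and in each Lrit2 promoter. It occurred 3, 2 and 1 times in the 3 promoters of Ghitm and was not found in that of Lrit1, and 33.8% of promoters held it. The E-box CAGCTG occurred in Lrit1 alone among the members (13.0% of promoters), and TATAAA in none of them (12.4% of promoters). None of the 4 motifs contains another, and a match is a description of the sequence, not a binding site. The 3 genes with a TAATCC match had between 0 and 3 reads per library, gene by gene in the values that follow.

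Reads counted on genes numbered between 26358165 and 33727936 per library, and 17421 of the 34620 symbols had enough reads to be tested. Values are given as CPM, read counts brought to a common library size with edgeR's TMM scaling, and calls rest on edgeR's exact test at an adjusted p (q) under 0.01. Htr1a, the receptor gene, lay at 55.7 to 62.2 CPM (WT), 49.4 to 55.1 CPM (F1) and 66.6 to 68.6 CPM (F2) and was not called in either group against WT. Granule cell markers were present throughout, and all 6 of them were tested, with summed levels of 867 to 881 CPM for WT, 730 to 881 CPM for F1 and 978 to 1039 CPM for F2. Markers of other cells were present too. Summed over 6 genes, astrocyte markers reached 1214 to 1274 CPM for WT, 1462 to 1793 CPM for F1 and 1620 to 1989 CPM for F2. Microglial markers (6 genes) reached 108 to 110 CPM, 128 to 149 CPM and 143 to 165 CPM, and oligodendrocyte markers (7 genes) 1077 to 1959 CPM, 2184 to 2896 CPM and 1494 to 2827 CPM. Endothelial and mural markers (8 genes) reached 158 to 175 CPM for WT, 178 to 220 CPM for F1 and 209 to 214 CPM for F2. Of these lists, 1 astrocyte and 2 oligodendrocyte genes were called higher in F1. In F2, 4 astrocyte, 4 microglial, 1 oligodendrocyte and 1 endothelial or mural genes were called higher. Over all tested genes, 3.77% were called higher and 8.54% lower in F1, and 3.86% higher and 8.10% lower in F2. The granule cell marker Trpc6, a cation channel gene, was called lower in both (log2 fold changes -0.998 and -0.71, adjusted p = 4.9e-09 and 7.2e-05 by edgeR), and the other 5 granule markers were not called. The share of uniquely placed reads outside annotated exons was 17.7% and 20.7% in WT, 13.8% and 12.2% in F1, and 13.9% and 17.4% in F2. Astrocyte, microglial, and endothelial and mural sums were higher in all 4 descendant libraries than in both WT libraries, with higher means in F2 than in F1. Oligodendrocyte sums lay above WT in both F1 libraries, while the F2 range overlapped with WT. The median log2 fold change of the oligodendrocyte list was 0.82 in F1 and 0.60 in F2. Granule sums lay above WT in both F2 libraries, while the F1 range overlapped with WT. The share outside exons was lower in all 4 descendant libraries than in both WT libraries, narrowly so in F2 replicate 2. The part of these shares and marker levels in the Cdhr1 difference was not tested.

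Cdhr1 was read at a trace level in WT and at a moderate level in F1 and F2. WT libraries held 38 and 35 Cdhr1 reads, F1 libraries 457 and 728 reads, and F2 libraries 280 and 261 reads. After scaling this came to 1.12 and 1.23 CPM in WT, 15.1 and 23.6 CPM in F1, and 10.5 and 9.69 CPM in F2. The 3 groups did not overlap: every F2 library lay above both WT libraries, and every F1 library lay above both F2 libraries. The mean was 1.17 ± 0.0808 CPM (SD, n = 2) for WT, 19.3 ± 6.0 CPM for F1 and 10.1 ± 0.551 CPM for F2. Relative to WT, the fitted log2 fold change was 4.04 (standard error 0.28) in F1 and 3.10 (standard error 0.28) in F2, which is 16.4-fold and 8.57-fold. Both use the same 2 WT libraries. From the shares of all tested genes called higher (3.77% in F1 and 3.86% in F2) nothing is read for Cdhr1, since these contrasts chose it. By size of the log2 fold change Cdhr1 stood in place 10 of 17421 tested genes in F1 and in place 13 in F2. Restricted to the 13679 genes that averaged 50 or more reads, it stood in place 2 in both. A high place follows from the choice of Cdhr1 by its rise, so these places are a description only. In bulk tissue, more cells with the transcript cannot be told apart from more transcript per cell.

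**Figure D1:**
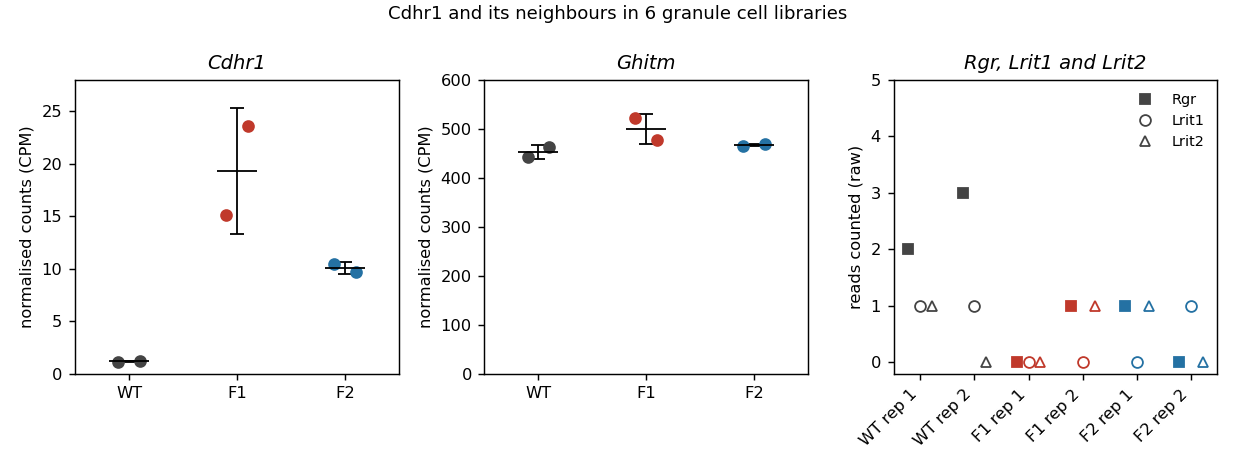
Left and centre, normalised counts (CPM) of Cdhr1 and Ghitm in WT, F1 and F2, with a point per library and bars for the mean and SD of 2 libraries. Right, raw reads counted on Rgr, Lrit1 and Lrit2 in each library: Cdhr1 separates the 3 groups, Ghitm stays between 442 and 521 CPM, and none of the other 3 genes exceeds 3 reads.

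The contrast of F2 with F1 is not the one that chose Cdhr1, but it uses the same F1 and F2 libraries and is not independent of the choice. Cdhr1 was lower in F2 than in F1, with a log2 fold change of -0.94 (standard error 0.23, 95% interval -1.38 to -0.50, adjusted p = 0.00579 by edgeR's exact test), against a background of 0.740% of tested genes called between F2 and F1. The 2 F1 libraries were unlike each other: replicate 2 had 1.56 times the CPM of replicate 1 (exact 95% interval for counting error 1.39 to 1.76), and 4.26% of genes averaging 50 or more reads showed as large a gap. The corresponding ratio was 1.10 (0.676 to 1.79) in WT and 0.926 (0.779 to 1.10) in F2. Without F1 replicate 2 the log2 fold change of F2 against F1 was -0.58 (adjusted p = 0.154 by edgeR). The call was also lost without F2 replicate 1 (-0.996, adjusted p = 0.205) and without F2 replicate 2 (-0.88, adjusted p = 0.198), and under edgeR's quasi-likelihood test (-0.94, adjusted p = 0.101).

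Lrit1, Lrit2 and Rgr were near 0 in all libraries and did not pass the filter on low counts. Rgr had 2 and 3 reads in WT, 0 and 1 in F1, and 1 and 0 in F2. Lrit1 had 1 and 1, 0 and 0, and 0 and 1 reads in WT, F1 and F2. Lrit2 had 1 and 0, 0 and 1, and 1 and 0 reads in the same order. No library of any group thus showed more than 3 reads of a retinal neighbour, while Cdhr1 had at least 261 reads in each F1 and F2 library. The exact 95% Poisson interval of the summed reads was 1.62 to 11.7 in WT and 0.0253 to 5.57 in F1 and in F2 for Rgr, and for Lrit1 the 0 reads in F1 have an upper limit of 3.69 reads. These intervals cover counting error only and overlap between the groups, so no difference of these 3 genes was detectable at this depth.

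Ghitm was strongly read in every library. It had 442 and 462 CPM in WT, 521 and 478 CPM in F1, and 466 and 469 CPM in F2. Both F1 values and both F2 values lay above both WT values. How many of all tested genes show such an order was not counted, here or for the genes that follow. The log2 fold change was 0.14 in F1 (standard error 0.11, 95% interval -0.08 to 0.37, adjusted p = 0.396 by edgeR) and 0.05 in F2 (standard error 0.11, 95% interval -0.17 to 0.27, adjusted p = 0.823 by edgeR). Between F2 and F1 it was -0.10 (standard error 0.11, adjusted p = 0.963 by edgeR). Ghitm did not pass the threshold in any contrast, and the intervals bound its difference from WT well below that of Cdhr1.

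Set against Ghitm within each library, which removes the scaling between libraries, Cdhr1 had 2.53 and 2.67 reads per 1000 Ghitm reads in WT, 28.9 and 49.4 in F1, and 22.5 and 20.7 in F2. The order of the groups was thus the same with Ghitm reads in place of the TMM scaling. Since these reads chose Cdhr1, this is a description only. Per kilobase of exon, which allows levels of different genes to be compared, Cdhr1 was at 0.273 (WT), 4.49 (F1) and 2.34 (F2) CPM per kb. At these levels 8.23%, 49.6% and 37.6% of 17073 tested genes with a known length lay below it. Ghitm was at 175, 194 and 181 CPM per kb, above 98.9% of those genes in WT. The WT reads of Cdhr1 amount to a mean depth of 0.442 and 0.407 reads per exon base, against 5.31 and 8.46 in F1 and 3.25 and 3.03 in F2. Even at its highest, Cdhr1 per kb was 2.96% of Ghitm per kb (F1 replicate 2).

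The rest of the neighbourhood was examined in widening windows around Cdhr1. Within 1 Mb, 3 genes other than Cdhr1 were tested: Gcap14, Ghitm and 4930474N05Rik. Against that background of 3.77% higher and 8.54% lower (F1), and 3.86% and 8.10% (F2), 0 of the 3 were called in either group by edgeR's exact test, its quasi-likelihood test or DESeq2, and 1 in F1 and 0 in F2 were at an unadjusted p under 0.05. Gcap14, 109085 bases from Cdhr1, had 80.6 and 85.3 CPM in WT, 95.2 and 107 CPM in F1, and 97.0 and 91.4 CPM in F2. All 4 descendant libraries lay above WT, an order whose share among all tested genes was not counted. The log2 fold change was 0.28 in F1 (standard error 0.12, adjusted p = 0.0771 by edgeR) and 0.18 (adjusted p = 0.294) for F2. The sparsely read 4930474N05Rik had between 7 and 23 reads per library, and its log2 fold change was -0.85 in F1 (standard error 0.47, adjusted p = 0.195 by edgeR) and -0.91 (adjusted p = 0.196) for F2. The 5 nearest annotated loci on either side also included a ribosomal RNA gene with 0 reads and copies of a small nucleolar RNA that could not be matched to 1 locus. On the Ghitm side the next protein-coding genes were Nrg3, a neuregulin, and Gm3386, at 1270640 and 1282154 bases. Nrg3 had 31.9 and 34.4 CPM in WT, 40.2 and 48.2 CPM in F1, and 44.7 and 41.6 CPM in F2 (log2 fold changes 0.42 and 0.38, adjusted p = 0.0161 and 0.0301 by edgeR), short of the threshold.

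Within 5 Mb, 36 genes other than Cdhr1 were tested. In F1, 3 of them (8.33%) were called by edgeR's exact test, 1 higher and 2 lower than in WT, and in F2, 2 of them (5.56%), 1 in each direction. Over all tested genes the shares were 3.77% higher and 8.54% lower in F1, and 3.86% higher and 8.10% lower in F2. The median log2 fold change of the 36 genes was 0.14 in F1 and 0.06 in F2, beside 0.01 and 0.00 over all tested genes. The genes called were named after their values were seen. Zfp488, which encodes a zinc finger protein, was called lower in both groups, with 34.9 and 43.1 CPM in WT, 25.9 and 20.0 CPM in F1 and 20.3 and 20.2 CPM in F2 (log2 fold changes -0.76 and -0.95, adjusted p = 8.8e-05 and 7.3e-07 by edgeR). Its F1 call was lost without WT replicate 2 (-0.61, adjusted p = 0.0199 by edgeR) or F1 replicate 2 (-0.59, adjusted p = 0.0180). Dydc2 was called lower in F1 and not in F2 (1.35 and 1.37 CPM in WT, 0.396 and 0.194 CPM in F1, 0.897 and 1.00 CPM in F2), and its difference between F2 and F1 had an adjusted p of 0.0287 by edgeR, over the threshold. Mmrn2, a matrix gene of blood vessels, was called higher in F1 (0.92, adjusted p = 0.00459 by edgeR) and had a log2 fold change of 0.80 in F2 (adjusted p = 0.0169). Leaving out any library except F1 replicate 1 ended the Mmrn2 call, with values from 0.60 without F1 replicate 2 to 0.93, as did the quasi-likelihood test (adjusted p = 0.0228) and DESeq2 (adjusted p = 0.0191). Glud1, which encodes glutamate dehydrogenase, was called higher in F2 (0.45, adjusted p = 0.00206 by edgeR), and leaving out any WT or F2 library ended that call, with values from 0.38 to 0.51, as did the quasi-likelihood test (adjusted p = 0.0129). Over the whole of chromosome 14, 599 genes other than Cdhr1 were tested. Of these, 27 were called higher and 53 lower in F1 (13.4%), and 28 higher and 38 lower in F2 (11%), shares close to those over all tested genes.

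**Figure D2:**
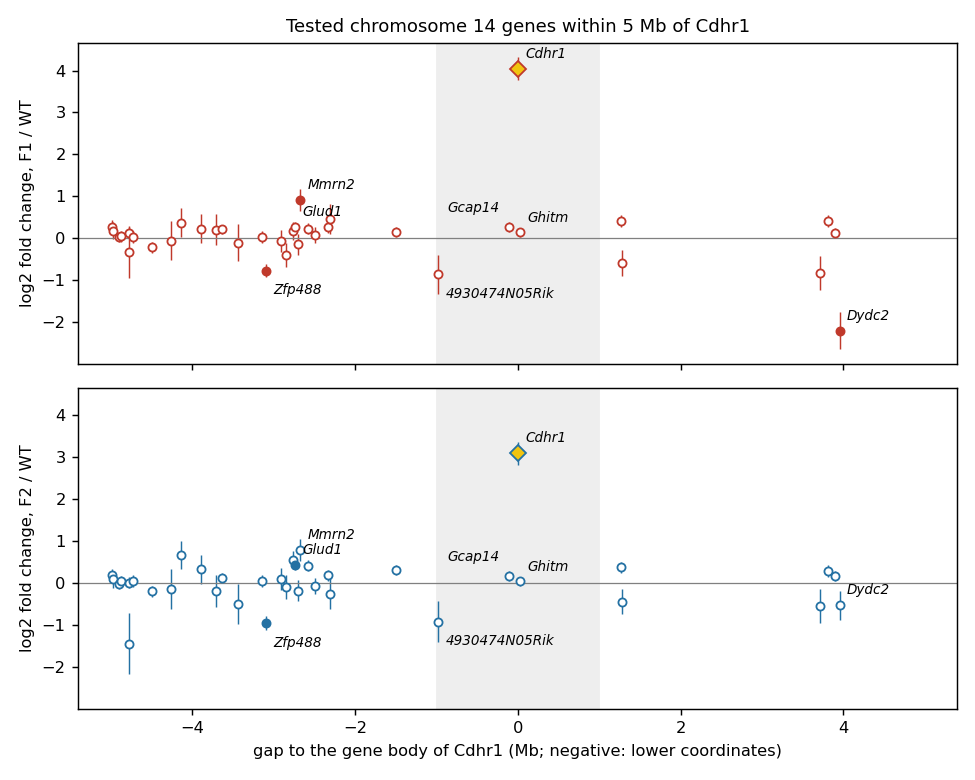
Log2 fold change from WT in F1 (top) and F2 (bottom) of the tested chromosome 14 genes within 5 Mb of Cdhr1, against the distance between gene bodies in Mb, with bars of 1 standard error. Filled points passed the threshold, open points did not, Cdhr1 (diamond) has no test, and the shaded band is 1 Mb to each side: Cdhr1 stands at 4.04 and 3.10 while the 3 other genes in the band lie between -0.91 and 0.28.

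Genes related to Cdhr1 in sequence did not share its difference. Of 7 cadherin-related genes, 6 were tested, and Cdhr5 had at most 2 reads per library. Besides Cdhr1, which is a member of the list, 0 were called higher, and 1 was called lower in F1 and 2 in F2, where 8.54% and 8.10% of all tested genes were. The median log2 fold change of the 6 was -0.52 in F1 and -0.41 in F2, beside 0.01 and 0.00 over all tested genes. Cdh23, which with Pcdh15 forms the tip links of hair cells in the inner ear, had 4.88 and 3.56 CPM in WT, 1.62 and 1.78 CPM in F1, and 1.46 and 2.04 CPM in F2. The fitted log2 fold change was -1.31 in F1 (standard error 0.29, adjusted p = 0.000111 by edgeR) and -1.27 in F2 (standard error 0.29, adjusted p = 0.000262 by edgeR). Neither descendant group overlapped with WT, and the calls were lost without WT replicate 1 (-1.07 and -1.02, adjusted p = 0.0253 and 0.0410 by edgeR), and that of F2 also without F2 replicate 1 (-1.05, adjusted p = 0.0594). Cdhr4 had 1.53 and 0.880 CPM in WT, 0.495 and 0.518 CPM in F1, and 0.299 and 0.371 CPM in F2. It was called lower in F2 (-1.85, standard error 0.48, adjusted p = 0.00109 by edgeR), with -1.26 in F1 (adjusted p = 0.0196). The Cdhr4 call was lost without WT replicate 1 (-1.38), F2 replicate 1 (-1.70) or F2 replicate 2 (-2.01) and under the quasi-likelihood test (adjusted p = 0.0147) and DESeq2 (adjusted p = 0.0430). Pcdh15, Cdhr2 and Cdhr3 were not called in either group, with log2 fold changes from -0.59 to -0.02.

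Genes of the cells in which Cdhr1 is best known were examined next. Of 30 photoreceptor genes, 15 were tested and 0 were called in F1 or F2 by edgeR's exact test, its quasi-likelihood test or DESeq2, while 4 in F1 and 6 in F2 were at an unadjusted p under 0.05. Another 5 of the 30 had at most 3 reads in every library. Their median log2 fold change was 0.12 in F1 and -0.13 in F2. Crx, the homeodomain factor of photoreceptors, had 29 and 21 reads in WT, 11 and 8 in F1, and 10 and 13 in F2. It was lower in all 4 descendant libraries than in WT without passing the threshold, the opposite order to Cdhr1. Pdc and Cnga1, of the rod signalling cascade, had at most 1 read per library. Prom1, a disc membrane protein that is described as a partner of Cdhr1 in photoreceptors and is also used in other cells, had 8.24 and 11.6 CPM in WT, 11.2 and 14.02 CPM in F1, and 14.5 and 11.6 CPM in F2. The fitted log2 fold change was 0.35 in F1 and 0.40 in F2 (adjusted p = 0.259 and 0.188 by edgeR).

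Rgr was set among 18 opsin and retinoid cycle genes, of which 10 were tested. By edgeR's exact test 2 were called higher in F1 and 3 in F2, beside 3.77% and 3.86% of all tested genes, and 0 lower, with a median log2 fold change of 0.06 in F1 and 0.00 in F2. By the quasi-likelihood test and by DESeq2, 0 were called in either group, while 4 in F1 and 5 in F2 were at an unadjusted p under 0.05. Opn3, a non-visual opsin known from brain, had 19 and 12 reads in WT, 50 and 43 in F1, and 23 and 51 in F2 (log2 fold changes 1.61 and 1.47, adjusted p = 0.00228 and 0.00841 by edgeR). The F1 call of Opn3 was lost without either WT library or F1 replicate 1, with values from 1.44 to 1.83. The F2 call was lost without either WT library, or without F2 replicate 2 (0.79, adjusted p = 0.372 by edgeR). Lrat, which makes retinyl esters for storage, was called in both groups on very few reads, 0 and 2 in WT, 6 and 13 in F1, and 8 and 14 in F2. DESeq2 gave Lrat no adjusted p. Its F1 call was lost without any library but F1 replicate 1 (adjusted p = 0.0107 to 0.221 by edgeR), and its F2 call without either WT library or F2 replicate 2 (adjusted p = 0.0101 to 0.162). Rlbp1, a carrier of retinaldehyde that glia also make, had 8.80 and 8.38 CPM in WT, 9.84 and 14.2 CPM in F1, and 14.8 and 12.9 CPM in F2. It was called in F2 (0.69, adjusted p = 0.00808 by edgeR) with 0.49 in F1 (adjusted p = 0.0780), and leaving out any WT or F2 library ended the call, with values from 0.58 to 0.79. Rgr itself and Rpe65, the isomerase of the visual cycle, had at most 4 reads in any library.

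Mitral and tufted cell genes gave a mixed picture. Of 8, 7 were tested, and 0 were called higher and 1 lower in F1, and 2 higher and 1 lower in F2 (edgeR), beside 3.77% and 8.54% (F1) and 3.86% and 8.10% (F2) over all tested genes, with median log2 fold changes of 0.06 and 0.10. Tbx21, a transcription factor that marks these cells in the olfactory bulb, had between 2 and 12 reads per library and was not tested. Doc2g, a C2-domain protein gene known from the same cells, had 5.09 and 3.70 CPM in WT, 2.11 and 1.10 CPM in F1, and 1.12 and 2.15 CPM in F2, lower in every descendant library. Its log2 fold change was -1.45 in F1 and -1.42 in F2 (adjusted p = 0.00105 and 0.00148 by edgeR). The calls were lost without WT replicate 1 (-1.20 and -1.17), without F1 replicate 2 for F1 (-1.05) and without F2 replicate 1 for F2 (-1.03), and under the quasi-likelihood test (adjusted p = 0.0178 and 0.0211). Slc17a6, the vesicular glutamate transporter VGLUT2, had 24.2 and 19.0 CPM in WT, 14.1 and 30.8 CPM in F1, and 37.8 and 50.4 CPM in F2 (1.03 in F2, adjusted p = 0.00274 by edgeR). Reln, which encodes the secreted protein reelin, had 35.6 and 37.3 CPM in WT, 35.8 and 44.1 CPM in F1, and 56.8 and 45.7 CPM in F2 (0.49 in F2, adjusted p = 0.00875 by edgeR). Neither was called by the quasi-likelihood test (adjusted p = 0.0284 and 0.0300) or by DESeq2 (0.130 and 0.0112). Without F2 replicate 1 Reln was at 0.32, without F2 replicate 2 Slc17a6 was at 0.81, and both calls were also lost without either WT library. Both genes are also used by other cells of the hippocampus.

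Ghitm was likewise set among its relatives and partners. All 6 genes of the TMBIM family, to which it belongs, were tested, and 0 were called in F1 or F2 by edgeR's exact test, its quasi-likelihood test or DESeq2, with 2 and 1 at an unadjusted p under 0.05. The median log2 fold change was 0.14 in F1 and 0.10 in F2. Tmbim6, a membrane protein of the endoplasmic reticulum that protects cells from death, came nearest, with 225 and 199 CPM in WT, 268 and 265 CPM in F1, and 265 and 264 CPM in F2 (0.33 and 0.32, adjusted p = 0.0269 and 0.0344 by edgeR). Faim2 and Grina, which are neuronal members, were at 452 to 593 CPM in all libraries with log2 fold changes from -0.14 to 0.15. Of 15 genes of mitochondrial calcium handling and cristae, all were tested and 0 were called in F1 or F2 by the same 3 tests, with 3 and 1 at an unadjusted p under 0.05. Their median log2 fold change was -0.01 in F1 and -0.03 in F2. The lowest adjusted p in F1 was 0.0160 by edgeR, for Mcub, an inhibitory subunit of the calcium uniporter, with 65 and 43 reads in WT, 85 and 105 in F1, and 37 and 39 in F2.

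**Figure D3:**
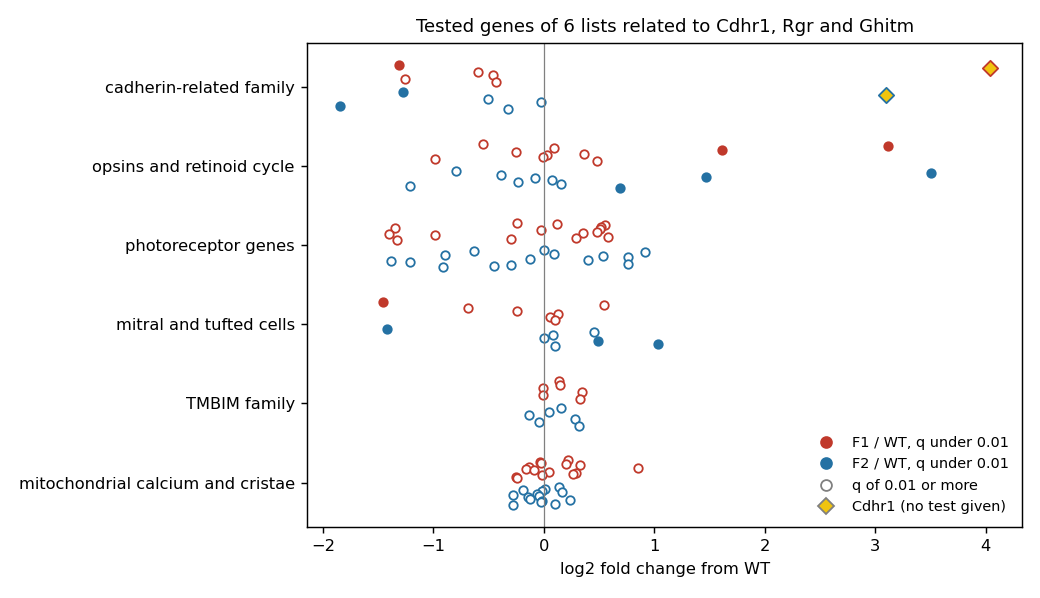
Log2 fold change from WT of each tested gene in 6 lists related to the members, red for F1 and blue for F2. Filled points had q under 0.01, open points did not, and the diamonds are Cdhr1: no other cadherin-related gene lies above 0, 0 of the 15 photoreceptor genes are filled, and the TMBIM and mitochondrial genes lie close to 0 apart from Mcub at 0.85 in F1.

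The genes whose pattern over the 6 libraries was most like that of Cdhr1 were sought among 155 tested genes that averaged 50 or more reads and spanned a range of at least 2 on the log2 CPM scale. Likeness was the Pearson correlation of log2 CPM with Cdhr1 over 6 libraries that fall into 3 groups, given as a description without a p. The closest were Gm5619 on chromosome 9 (0.995), Cyth4 on chromosome 15 (0.988), B230217O12Rik on chromosome 19 (0.986), Gm15772 on chromosome 5 (0.977) and AK157302 (0.976), a transcript with no position in the annotation used. None of the 4 with a position lies on chromosome 14, which held 599 of the 17420 tested genes other than Cdhr1. At so small a share nothing is read from this, and the share among the 155 candidates was not counted. Gm5619, a predicted gene, had 0.206 and 0.317 CPM in WT, 3.47 and 4.57 CPM in F1, and 2.77 and 2.15 CPM in F2. Cyth4, a cytohesin that activates small GTPases of the ARF class, had 8.12 and 6.86 CPM in WT, 35.8 and 41.7 CPM in F1, and 22.1 and 27.0 CPM in F2. Both had the order WT, F2, F1, as Cdhr1 did, which their choice by likeness favours. The noncoding RNA B230217O12Rik had 2.06 and 2.78 CPM in WT, 8.85 and 9.42 CPM in F1, and 7.74 and 7.35 CPM in F2. Gm15772, annotated as a pseudogene, had 10.9 and 9.96 CPM in WT, 41.9 and 57.8 CPM in F1, and 26.8 and 25.02 CPM in F2. Reads that also match another site are not in its count, and whether counted reads came from a near-identical copy was not examined. AK157302 had 0.794 and 0.634 CPM in WT, 7.89 and 6.31 CPM in F1, and 3.40 and 4.08 CPM in F2. Like Cdhr1, Gm5619, Cyth4, B230217O12Rik and Gm15772 had more CPM in F1 replicate 2 than in F1 replicate 1, while AK157302 had fewer.

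**Figure D4:**
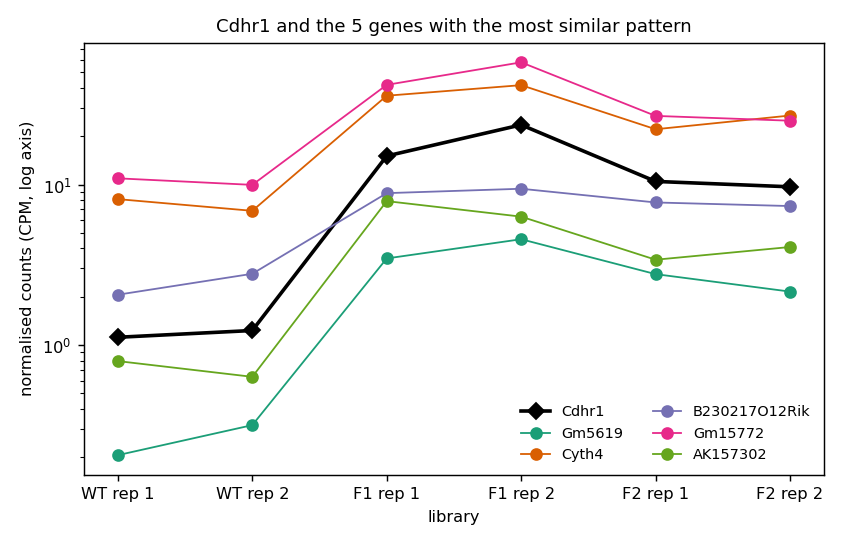
Normalised counts (CPM, log axis) of Cdhr1 and the 5 genes with the most similar pattern in each of the 6 libraries. Lines join the libraries of a gene as a guide, and all 6 genes lie lowest in the WT libraries and highest in the F1 libraries, with Cdhr1 between 1.12 and 23.6 CPM.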

How the data were processed

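RNA was isolated from microdissected ventral dentate gyrus of WT, F1 and F2 males, and single-end reads of 50 bases were sequenced. Per the labels and the study's methods, the authors aligned them to mm9 with TopHat without new junctions and deposited read counts per gene symbol from HTSeq in intersection-strict mode, without normalization. TopHat2 is listed as version 2.0.2 in the submitters' processing notes, and the methods name another version. Strand use is not given in the sources used here. Reads placed at several sites or reaching outside exons are not in the counts, which lowers genes with near-identical copies. Per library, 26358165 to 33727936 reads were counted on genes. The 12 bisulfite libraries were not analysed here.

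Groups followed the labels. The counts were filtered with filterByExpr, scaled by TMM and compared by the exact test of edgeR 4.0.16 (R 4.3.3), with common and tagwise dispersion over all 6 libraries (common dispersion 0.0113), Benjamini-Hochberg adjustment over 17421 genes and a threshold of 0.01. Standard errors follow from mean counts and tagwise dispersion. Replicates were no duplicates (chi-square per degree of freedom 23.0, 18.5 and 22.3). The procedure was tested on simulated data. Alternatives were other edgeR tests with and without a replicate block, DESeq2 1.42.0, other scalings, filters and thresholds, and each library left out. Positions come from GENCODE M1 (mm9), which matched 32955 of 34620 symbols to 1 gene, and all 5 members. Promoters are those of RefSeq (GRCm38.p6), placed on mm9 by exact match for all 5 members. Tables were made with pandas 2.3.3 and SciPy 1.17.1 under Python 3.11.15, and plots with matplotlib 3.10.9. The genes named are the members, their nearest and tested neighbours, the genes of the lists related to the members (not of the cell type markers) and the 5 genes most like Cdhr1. A listed gene is counted but not reported here. Members and lists were chosen with earlier results of these data known.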

Additional observations from a re-analysis of the deposited data

Results flagged for a closer look

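Cdhr1, Cyth4 and Gm15772 had an adjusted p under 0.01 between F2 and F1 by edgeR's exact test. Cdhr1 was lower in F2 than in F1, with a log2 fold change of -0.94, in 2 of 2 F2 libraries against both F1 libraries (adjusted p = 0.00579 by edgeR). Cyth4 had -0.66 (adjusted p = 0.00670 by edgeR) and Gm15772 -0.94 (adjusted p = 1.06e-05 by edgeR), also with both F2 libraries below both F1 libraries. Cyth4 and Gm15772 were named because they follow Cdhr1 over the 6 libraries, so their difference between F2 and F1 is a description and not independent of it. Under the quasi-likelihood test the adjusted p was 0.101 for Cdhr1, 0.104 for Cyth4 and 0.0274 for Gm15772. The Cyth4 call was lost without F1 replicate 2 (-0.55), F2 replicate 1 (-0.52) or F2 replicate 2 (-0.81), and that of Gm15772 without F2 replicate 2 (-0.89, adjusted p = 0.0135 by edgeR).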

How the results depend on the processing

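The log2 fold changes of Cdhr1 against WT kept their sign under all 17 alternative fits. Cdhr1 was chosen for these differences in the same libraries, so their sign and size here are a description and no support. With a library left out they spanned 3.69 to 4.33 (F1) and 3.03 to 3.17 (F2). Ghitm stayed over the threshold of 0.01 in all contrasts, and 0 genes within 1 Mb were called, under all alternatives. The Cdhr1 difference between F2 and F1 was negative in all 17 alternative fits and stayed past the threshold in 11. The call was lost under the quasi-likelihood test without a block (-0.94, adjusted p = 0.101 by edgeR), with no filter on low counts (-0.94, adjusted p = 0.0111), and on leaving out F1 replicate 2, F2 replicate 1 or F2 replicate 2, where all 6 such fits ranged from -1.23 to -0.58. The counts of genes called were 1029 (F1), 997 (F2) and 2 (F2 against F1) under the quasi-likelihood test, and 3623, 3606 and 230 at a threshold of 0.05. With a library left out they ranged from 1011 to 2031 in F1 (lowest without WT replicate 1), from 754 to 2560 in F2 (lowest without F2 replicate 1) and from 54 to 227 in F2 against F1 (lowest without F2 replicate 1, highest without F1 replicate 2). The cause of these shifts was not tested. The replicate numbers as labelled showed no positive pairing of the libraries. The differences between replicates had correlations over genes of -0.0269 (WT and F1), -0.0830 (WT and F2) and -0.182 (F1 and F2). The quasi-likelihood test with a replicate block gave 848, 758 and 9 genes and -0.91 for Cdhr1 in F2 against F1 (adjusted p = 0.106 by edgeR). A likelihood-ratio test with the F2 numbers crossed in the block was added after seeing the data. It gave 2679 (F1), 2752 (F2) and 233 (F2 against F1) genes, beside 1743, 1758 and 117 with the numbers as labelled. For Cdhr1 in F2 against F1 the crossed block gave -0.91 (adjusted p = 0.000198 by edgeR's likelihood-ratio test). Why the crossed block gave more calls was not tested. Lrit1, Lrit2 and Rgr were under the filter, so that the alternatives gave no value except with no filter, where the lowest adjusted p was 0.577 by edgeR. With 2 libraries a group the number of libraries limits the precision, and for those 3 genes depth does.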
